A study of Mus musculus with 12 samples.

Results

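Cadherins, claudins and integrins are the families of membrane proteins that hold epithelial cells to each other and to the matrix beneath them. The probes described here were those whose gene name in the array files begins with Cdh or Cldn and a digit, or with Itga or Itgb and a digit or one of the letters d, e, l, m, v and x. The rule found 139 of 41174 probes, under 76 gene names. They comprised 44 cadherin probes for 23 names, 26 claudin probes for 23 names and 69 probes for 30 integrin names. The rule also admits names that are not integrin chains, namely Itgb1bp1 and Itgb1bp2 (binding partners of the β1 tail), Itgb3bp (a centromere protein) and Itgbl1 (a secreted protein with integrin-like repeats). By accession, 104 of the 139 probes matched a current RefSeq symbol. For 3 of them the symbol differed from the file, since both Cldn25 probes match Cldnd1 and the Cldn26 probe matches Tmem114, which are claudin-related genes.

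RNA came from whole back skin of male C57BL/6 mice, 8 weeks old at purchase, whose shaved backs received 200 µL daily of 3% MXD (minoxidil, the positive control), 10% N-CE (a cell extract of the cactus Notocactus ottonis obtained by cold vacuum extraction) or VC. VC is the vehicle of propylene glycol, ethanol and water that all groups received. At 1W, 2W and 3W, 6 mice per group gave RNA to 1 pool, and a dye swap of 2 arrays set each treated pool against VC of that week. This gave 6 comparisons on 12 arrays, each of 1 pool with 1 pool, so no test between mice was possible and every SD below is the technical spread between the 2 arrays of a dye swap. Each week had a slide of its own, holding its 4 arrays, so slide and week cannot be told apart, and MXD and N-CE of the same week share their VC sample.

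Classical cadherins bind their like on the next cell across the adherens junction and hold the actin skeleton through catenins. Claudins form the strands of the tight junction, where some seal the space between cells and others open pores for ions. Integrins are pairs of an α and a β chain that bind matrix proteins such as laminin, collagen and fibronectin, or counter-receptors on other cells. In skin, E-cadherin and P-cadherin join keratinocytes and cells of the hair matrix, Cldn1 is needed for the epidermal water barrier, and the α6β4 integrin of hemidesmosomes anchors basal keratinocytes. Whole back skin also holds vessels, nerves, leukocytes and the thin muscle under the dermis, each with its own members of these families.

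Between 56.96% and 69.6% of spots of a channel were well above background, and no spot was saturated. A probe was taken as detected when it was well above background in at least 12 of the 24 channel readings of the 12 arrays. All 7 skeletal muscle, 6 hair shaft, 6 endothelium and 7 leukocyte marker genes of the fixed lists were detected, as were the 5 basal keratinocyte markers. The Pearson correlation of the 2 arrays of a dye swap over the detected members was 0.45, 0.71 and 0.02 for MXD at 1W, 2W and 3W and 0.57, -0.05 and 0.26 for N-CE, so the 2W MXD and 1W N-CE folds repeated best between arrays. Within a week, VC was hybridized with MXD and again with N-CE, and the processed signals of these readings of 1 RNA differed by more than the fold thresholds given below at 3.53%, 9.41% and 15.3% of the detected members at 1W, 2W and 3W, against 4.72%, 17.9% and 17.1% of all detected probes. With normexp background correction, loess and scaling between arrays, the shares of members were 2.35%, 5.88% and 5.88%.

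Of the 139 member probes, 85 probes of 53 genes were detected (61.2%, against 62.6% of all probes). Detection differed between families: 14 of 44 cadherin probes, 20 of 26 claudin probes and 51 of 69 integrin probes passed. The 14 cadherins not detected included Cdh7, Cdh8, Cdh9, Cdh10, Cdh12 and Cdh18, which are known from the nervous system, and Cdh16 and Cdh17, known from kidney and intestine. Among claudins, Cldn2, Cldn6, Cldn13, Cldn16, Cldn18 and Cldn26 were not detected. Among integrins, Itga2, the collagen receptor chain of keratinocytes and platelets, was well above background in 3 and 1 of 24 readings on its probes, and Itga10 and Itgb2l were not detected either. No probe that failed the filter passed the call below in any comparison.

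A call of up- or down-regulation needed a geometric mean fold, treated over VC, above 1.5 or below 0.75, with the P of the scanner's error model below 0.01 and the same sign on each array. That P describes a spot and not the mice. Folds are given on the log2 scale as the mean of the dye swap ± SD (n = 2 arrays).

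Most calls among members lay in MXD at 2W. There, 7 of the 85 detected members were up-regulated, against 6.26% of all detected probes, and 15 were down-regulated, against 9.28%. As shares of the members these counts are 8.24% and 17.6%. In MXD at 1W, 0 members were called in either direction, where 1.01% of all detected probes were up- and 1.2% down-regulated. In MXD at 3W, 0 members were called as well, against 0.21% up and 0.245% down. In N-CE at 1W, 1 member was up-regulated (background 0.458%) and 2 were down-regulated (2.35%). In N-CE at 2W, 1 member was up-regulated (0.109%) and 0 were down-regulated (0.0817%). In N-CE at 3W, 0 were up-regulated (0.234%) and 1 was down-regulated (0.219%). The 22 called probes belong to 22 genes, 17 of them called in 1 comparison and 5 in 2 or more.

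**Figure D1:**
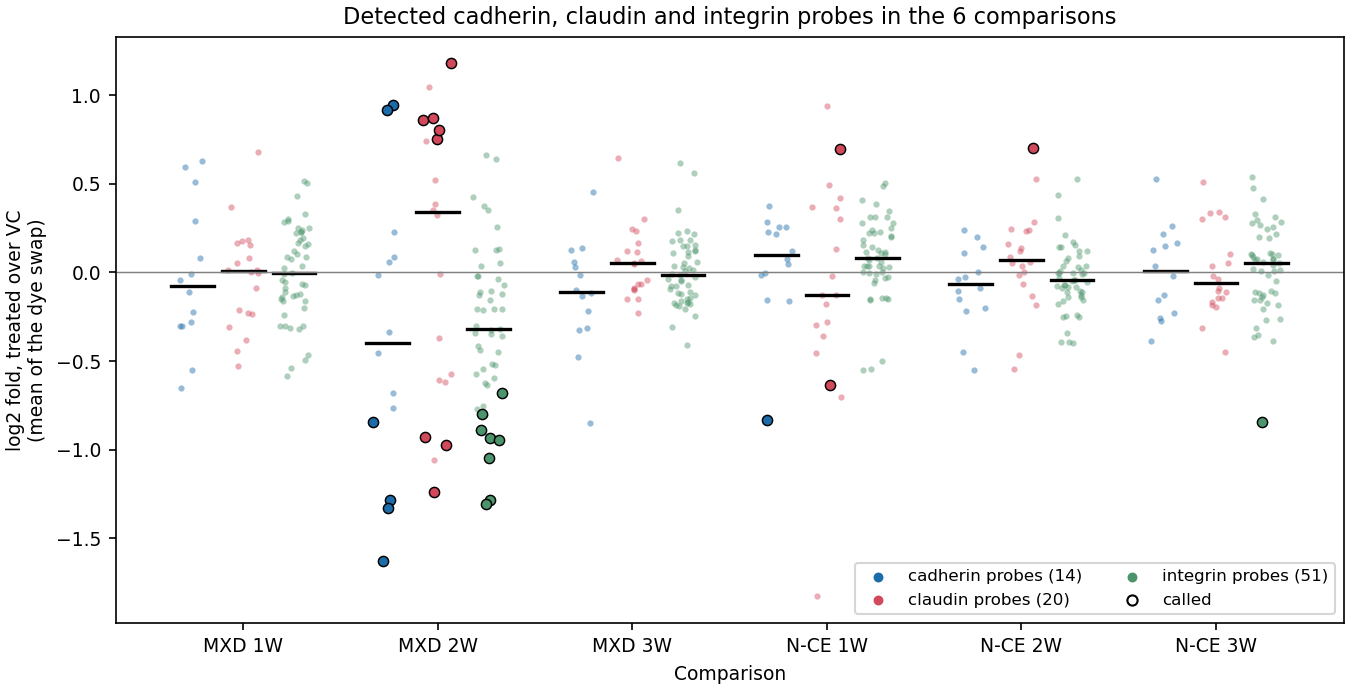
Log2 fold (treated over VC, mean of the dye swap) of each detected probe, by family and comparison. Each point is a probe, outlined points passed the call, and bars are family medians. The spread is widest in MXD 2W, where claudin probes have a median of 0.34 and cadherin and integrin probes medians of -0.40 and -0.32.

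In MXD at 2W the families did not move alike. The median log2 fold was 0.34 ± 0.19 for claudin probes (11 of 20 above 0), -0.40 ± 0.37 for cadherin probes (5 of 14) and -0.32 ± 0.04 for integrin probes (11 of 51), against 0.04 over all detected probes. The cadherin and integrin medians were nearer to 0 under normexp and loess, at -0.15 and -0.18, and the cadherin median was -0.18 over probes well above background in all readings of the comparison. In the other comparisons, every family median lay between -0.13 and 0.10. Each call under an integrin name was a down-regulation, 8 in MXD at 2W, of which 3 were names that are not integrin chains, and 1 in N-CE at 3W. Both other families had calls in each direction.

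Cdh3, which encodes P-cadherin of basal keratinocytes and the hair matrix, was up-regulated in MXD at 2W and down-regulated in N-CE at 1W. On the MXD 2W arrays the processed signal was 1333 in the treated channel against 635.2 in VC with the treated pool in Cy5, and 1055 against 598.1 with the dyes exchanged, a log2 fold of 0.94 ± 0.18. On the N-CE 1W arrays it was 207.6 against 368.0 and 199.7 against 358.2, a log2 fold of -0.83 ± 0.01. The treated channel was the brighter one on both MXD 2W arrays and the dimmer one on both N-CE 1W arrays. In the other comparisons the fold was 0.08 ± 0.13 (MXD 1W), 0.14 ± 0.09 (MXD 3W), 0.11 ± 0.02 (N-CE 2W) and 0.16 ± 0.27 (N-CE 3W). The probe that gave these values lies on chromosome 8 of mm9, at chr8:109079493-109079553, and is shown so that the transcript it reads can be traced:

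Cdh3: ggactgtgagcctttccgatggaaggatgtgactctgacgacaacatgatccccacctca

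Cdh1, the E-cadherin of all keratinocytes and the direct genomic neighbour of Cdh3, was not called in any comparison. Its folds in MXD at 2W were 0.02 and 0.44 on the 2 arrays (0.23 ± 0.30), and in N-CE at 1W -0.35 and 0.03 (-0.16 ± 0.27). Both are within the spread of the arrays.

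The hair shaft markers had the sign of Cdh3 in both comparisons. The 6 keratins of the hair shaft list (Krt31, Krt33a, Krt33b, Krt35, Krt85 and Krt86) were all up-regulated in MXD at 2W, with a median log2 fold of 1.32 ± 0.21 and a range from 1.06 to 1.46. All 6 were down-regulated in N-CE at 1W, with a median of -2.38 ± 0.18 and a range from -2.81 to -2.02. In MXD at 1W, 3 of 6 keratins were up-regulated with a median of 0.67 ± 0.01, while Cdh3 was at 0.08 ± 0.13. The part of hair follicle content in the Cdh3 values was not tested. In bulk tissue, fewer cells of a type and less RNA per cell cannot be told apart.

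Several cadherins of muscle, mesenchyme and vessels were down-regulated in MXD at 2W. The lowest fold of a member in that comparison was that of Cdh15, the M-cadherin of muscle stem cells, whose processed signal was 251.3 against 635.6 in VC on one array and 164.7 against 623.4 on the other, a log2 fold of -1.63 ± 0.41. Its weekly folds were also below 0 on every array of MXD at 1W (-0.53 and -0.57), MXD at 3W (-0.48 and -0.46), N-CE at 2W (-0.44 and -0.65) and N-CE at 3W (-0.36 and -0.41), without passing the call, and above 0 in N-CE at 1W (0.19 and 0.26). Cdh4, or R-cadherin, gave -1.07 and -1.58 on the 2 arrays (-1.33 ± 0.36), and its second detected probe, not called, gave -0.76 ± 0.14. Cdh2, the N-cadherin of muscle, nerve and mesenchyme, gave -1.16 and -1.41 (-1.28 ± 0.18) at the only detected probe of its 3. Under normexp background correction with loess its fold was -0.15 and the call was lost, and the probe was well above background in 19 of 24 readings. Cdh13, the GPI-anchored T-cadherin of vessels and muscle, gave -0.66 and -1.03 (-0.85 ± 0.26), with -0.68 ± 0.40 at its other probe. Cdh6, or K-cadherin, went the other way, at 0.87 and 0.96 (0.92 ± 0.06), with 0.51 ± 0.19 at 1W and 0.46 ± 0.07 at 3W, and its 2W fold was 0.45 and not called under normexp and loess.

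Cdh5, the VE-cadherin of endothelium, was not called. Its 2 probes in MXD at 2W gave -0.34 ± 0.52 and -0.46 ± 0.35. Cdh11, the cadherin of dermal fibroblasts, was not called in any comparison. Its 3 probes lay at -0.02, 0.06 and 0.09 in MXD at 2W, and at 0.60 ± 0.11, 0.63 ± 0.19 and 0.29 ± 0.09 in MXD at 1W, where both arrays of each probe were above 0.

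The claudins of barrier and glandular epithelia were the group with most up-regulations. Of the 9 detected probes (8 genes) of this list, 7 were above 0 in MXD at 2W with a median of 0.74 ± 0.03, and the probes of Cldn3, Cldn4, Cldn7 and Cldn8 were up-regulated. Cldn8, a sealing claudin of gland and kidney ducts, had the highest fold of all members, 1.16 and 1.20 on the 2 arrays (1.18 ± 0.03), from processed signals of 1208 against 541.5 and 933.8 against 406.4. It was also the only member up-regulated in N-CE at 2W, at 0.69 and 0.71 (0.70 ± 0.01). In the other weeks it was at 0.18 ± 0.11 (MXD 1W), 0.65 ± 0.20 (MXD 3W), -0.65 ± 0.15 (N-CE 1W) and 0.34 ± 0.32 (N-CE 3W), none of them called. Cldn3 gave 0.70 and 1.04 (0.87 ± 0.24), Cldn4 gave 0.87 and 0.63 (0.75 ± 0.17) and Cldn7 gave 0.76 and 0.85 (0.81 ± 0.07). The Cldn7 fold was 0.43 under normexp and loess, where the call was lost. Cldn4 arrays of other comparisons disagreed, for example -0.32 and 0.63 in MXD at 1W and -0.98 and 0.39 in N-CE at 1W. The same 4 claudins were below 0 in N-CE at 1W, at -0.45 ± 0.16 for Cldn3, -0.29 ± 0.97 for Cldn4, -0.70 ± 0.14 for Cldn7 and -0.65 ± 0.15 for Cldn8, without passing the call.

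In MXD at 2W and N-CE at 1W, hair shaft and melanocyte markers had the signs of these claudins. The 4 melanocyte markers were all up-regulated in MXD at 2W (median 1.20 ± 0.19) and all down-regulated in N-CE at 1W (median -1.80 ± 0.20), as were the hair shaft keratins above. The 3 sebocyte and gland markers had medians of 0.18 ± 0.28 and -0.16 ± 0.04. In MXD at 2W, Scd1, a lipid enzyme of sebaceous glands, was down-regulated (-0.92). Mc5r (0.48 ± 0.99) and Elovl3 (0.18 ± 0.00) were above 0 there and not called. In MXD at 1W and 3W, the hair shaft medians were 0.67 ± 0.01 and 0.31 ± 0.01, and the melanocyte medians 0.74 ± 0.01 and 0.74 ± 0.00. Cldn3 was below 0 in both weeks (-0.31 and -0.15), while Cldn4, Cldn7 and Cldn8 were above 0. The part of hair follicle or gland content in the claudin values was not tested.

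The other claudins of that list did not pass. Cldn1, the main claudin of the epidermal barrier, gave 0.74 ± 0.32 and 0.33 ± 0.59 at its 2 probes, and Cldn12 gave 0.52 ± 0.37. Cldn10, a paracellular ion channel claudin of sweat gland and kidney, gave -0.37 ± 0.09, and Cldn23 gave -0.57 ± 0.42. Outside the list, Cldn14, a cation barrier claudin of inner ear and kidney, was up-regulated in MXD at 2W at 0.90 and 0.82 (0.86 ± 0.06) and down-regulated in N-CE at 1W at -0.67 and -0.60 (-0.64 ± 0.04). The N-CE value was -0.40 and not called under normexp and loess. Cldn17, the genomic neighbour of Cldn8 and named here after its values were seen, had the lowest fold of any member in N-CE at 1W, -1.83 ± 0.79, and 1.05 ± 0.42 in MXD at 2W, but neither passed the P threshold on both arrays.

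Cldn3 and Cldn4 lie side by side on chromosome 5, and both rose in MXD at 2W. Their transcription starts are 39.3 kb apart in GRCm38.p6, on opposite strands. The stretch from 250 bases before to 50 after each start is shown because the 2 genes are the only neighbouring members that were both called. The sequences are from RefSeq (GRCm38.p6), at chr5:134985964-134986263 on the + strand for Cldn3 and chr5:134946885-134947184 on the - strand for Cldn4. Capitals mark GGGCGG on either strand (a GC box), printed CCGCCC where it is on the other strand:

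Cldn3: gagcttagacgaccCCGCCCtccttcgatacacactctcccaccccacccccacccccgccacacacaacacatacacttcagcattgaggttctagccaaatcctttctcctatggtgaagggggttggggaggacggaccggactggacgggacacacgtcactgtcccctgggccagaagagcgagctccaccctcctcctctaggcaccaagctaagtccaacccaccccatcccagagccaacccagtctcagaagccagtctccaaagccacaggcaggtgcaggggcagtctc

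Cldn4: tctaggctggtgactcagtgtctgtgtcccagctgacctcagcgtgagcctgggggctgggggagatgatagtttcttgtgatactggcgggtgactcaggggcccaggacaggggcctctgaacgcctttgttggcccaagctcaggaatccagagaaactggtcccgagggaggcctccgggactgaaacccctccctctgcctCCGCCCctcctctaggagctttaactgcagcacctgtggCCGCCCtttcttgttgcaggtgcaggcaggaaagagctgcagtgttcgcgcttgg

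The Cldn3 stretch holds 1 and the Cldn4 stretch 2 copies of GGGCGG, which 35.7% of all 32851 promoters of this length hold on either strand. CANNTG (an E-box) occurs 1 time in Cldn3 and 3 times in Cldn4, and 72.3% of all promoters hold it. Of the 22 genes called in MXD at 2W, 15 had a promoter in the RefSeq table, with 18 entries. Among those called up, 4 of 8 entries held GGGCGG and 7 of 8 held CANNTG, and among those called down, 6 of 10 and 7 of 10. TATAAA occurred in 0 of the 18 entries, against 13.6% of all promoters. The promoters of all detected member genes, 44 entries, held TATAAA in 0, GGGCGG in 52.3% and CANNTG in 72.7%, so these shares are not particular to the called genes. These are matches of letters, and no factor was measured.

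Claudins of endothelium and myelin were at the low end in MXD at 2W. All 4 detected probes of this list were below 0, with a median of -0.95 ± 0.36. Cldn5, the claudin of endothelial tight junctions, was down-regulated at -1.08 and -0.78 (-0.93 ± 0.21), from 2112 against 4451 and 1873 against 3219. Cldn11, known from myelin, was down-regulated at -0.91 and -1.03 (-0.97 ± 0.08), and at -0.50 under normexp and loess. Cldn19, a claudin of Schwann cells, gave -0.62 ± 1.00 and -1.06 ± 0.89 at its 2 probes, where single arrays ranged from 0.09 to -1.69, and was not called. Beside them, 0 of 6 endothelium markers were above 0 in MXD at 2W (median -0.43 ± 0.02, from -0.78 to -0.28, with Tek and Emcn down-regulated), and 1 of 5 Schwann cell markers was (median -0.60 ± 0.32). Cldn22 had the lowest claudin fold there, -1.20 and -1.27 (-1.24 ± 0.05), and was the only member up-regulated in N-CE at 1W, at 0.78 and 0.62 (0.70 ± 0.11). Under normexp and loess its MXD fold was -0.65 and still called, and its N-CE fold was 0.49 and not called.

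**Figure D2:**
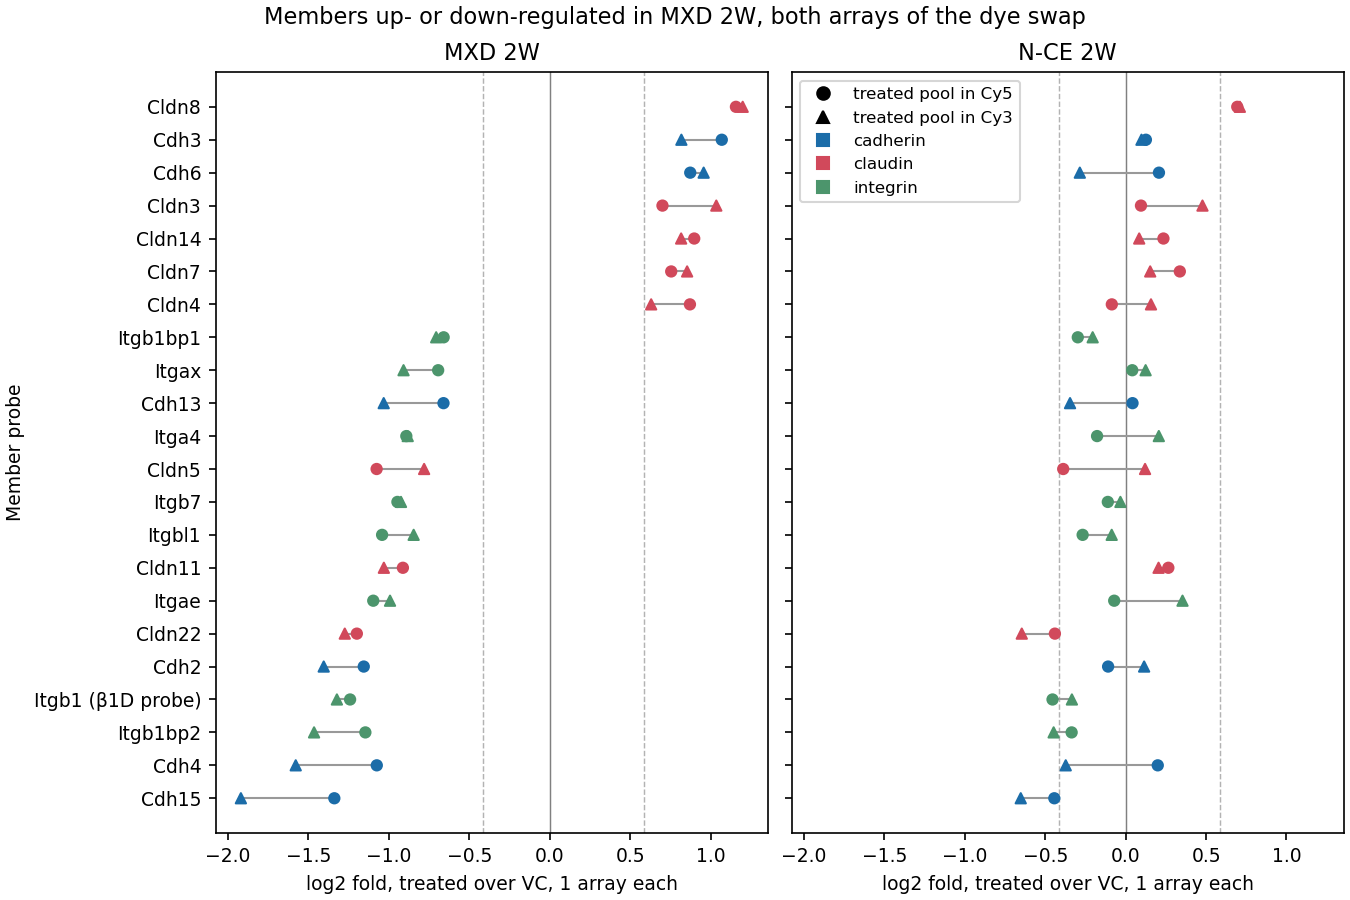
Log2 fold on each array for the 22 member probes called in MXD 2W (left), with the same probes in N-CE 2W (right), which shares the VC pool. Circles and triangles are the arrays with the treated pool in Cy5 and Cy3, colours are families, and dashed lines mark the fold thresholds of 1.5 and 0.75. In MXD 2W both arrays of every probe lie past the threshold, and in N-CE 2W Cldn8 alone passed the call.

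Integrins of leukocytes were below 0 throughout in MXD at 2W. All 10 detected probes (7 genes) of this list had negative folds, with a median of -0.70 ± 0.21 and a range from -1.04 to -0.13, and 4 were down-regulated. Itgae and Itgb7 encode the 2 chains of αEβ7, which binds E-cadherin on epithelial cells and marks T cells that live in epithelia. Itgae gave 361.9 against 774 and 286.7 against 570.5 (log2 fold -1.04 ± 0.07), and Itgb7 gave 552.1 against 1064 and 534.2 against 1014 (-0.94 ± 0.02). Both were lower in the treated channel on both arrays, and the second Itgae probe, not called, gave -0.80 ± 0.12. Itga4, the chain that pairs with β1 or β7 on lymphocytes, gave -0.89 and -0.88 (-0.89 ± 0.01) at the only detected probe of its 6. Its fold under normexp and loess was -0.34 and not called. Itgax, the CD11c chain of dendritic cells and macrophages, gave -0.69 and -0.91 (-0.80 ± 0.15) at the only detected probe of its 2.

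Itgax pairs with the β2 chain Itgb2, which itself was not called, nor were its other partners Itgal and Itgam. Itgb2 gave -0.59 ± 0.37 in MXD at 2W, Itgal (CD11a) -0.21 ± 0.36 and -0.55 ± 0.12 at its 2 probes, and Itgam (CD11b of neutrophils and macrophages) -0.13 ± 0.32 and -0.36 ± 0.06. In MXD at 1W, 7 of the 10 leukocyte integrin probes were above 0 with a median of 0.23 ± 0.01, and Itgam stood at 0.43 ± 0.17 and 0.28 ± 0.07, with 0 calls. All 3 detected neutrophil markers were up-regulated in that comparison (median 2.51 ± 0.14). In MXD at 2W, 0 of 7 leukocyte markers were above 0 (median -0.64 ± 0.20, from -1.05 to -0.10) and Ptprc, Cd52 and Emr1 were down-regulated. Cd3e, a T cell gene, was the highest of them, at -0.10 ± 0.39, and was not called. The part of leukocyte content in the integrin values was not tested.

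Itgb1, the β1 chain shared by many integrins, was read by 3 probes that disagreed. A_51_P286527 and A_52_P351816 were designed on the reference mRNA and lie at chr8:131256492-131256551 and chr8:131246349-131246408 of mm9. A_52_P69236 was designed on a GenBank mRNA of β1D, the splice form of the β1 tail found in striated muscle, and its 60 bases map to ends that are 5019 bases apart (chr8:131250931-131255949), so it crosses an exon junction. The 3 probes are shown because the calls depend on which of them is read:

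A_51_P286527: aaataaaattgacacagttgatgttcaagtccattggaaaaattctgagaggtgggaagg

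A_52_P351816: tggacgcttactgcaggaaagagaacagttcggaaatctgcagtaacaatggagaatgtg

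A_52_P69236: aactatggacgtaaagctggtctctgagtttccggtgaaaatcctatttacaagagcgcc

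Only the β1D probe was called. It was down-regulated in MXD at 2W, with 118.3 against 279.5 and 103.6 against 259.2 (log2 fold -1.28 ± 0.06), and in N-CE at 3W, at -0.95 and -0.74 (-0.85 ± 0.15). Under normexp and loess both calls held, with log2 folds of -0.68 and -0.50. The other probes were at -0.21 ± 0.07 and -0.44 ± 0.51 in MXD at 2W, and at -0.05 ± 0.31 and 0.28 ± 0.35 in N-CE at 3W. The β1D probe was below 0 on both arrays of MXD at 1W (-0.30 ± 0.03), MXD at 3W (-0.41 ± 0.00) and N-CE at 2W (-0.39 ± 0.09), and above 0 in N-CE at 1W (0.41 ± 0.04).

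**Figure D3:**
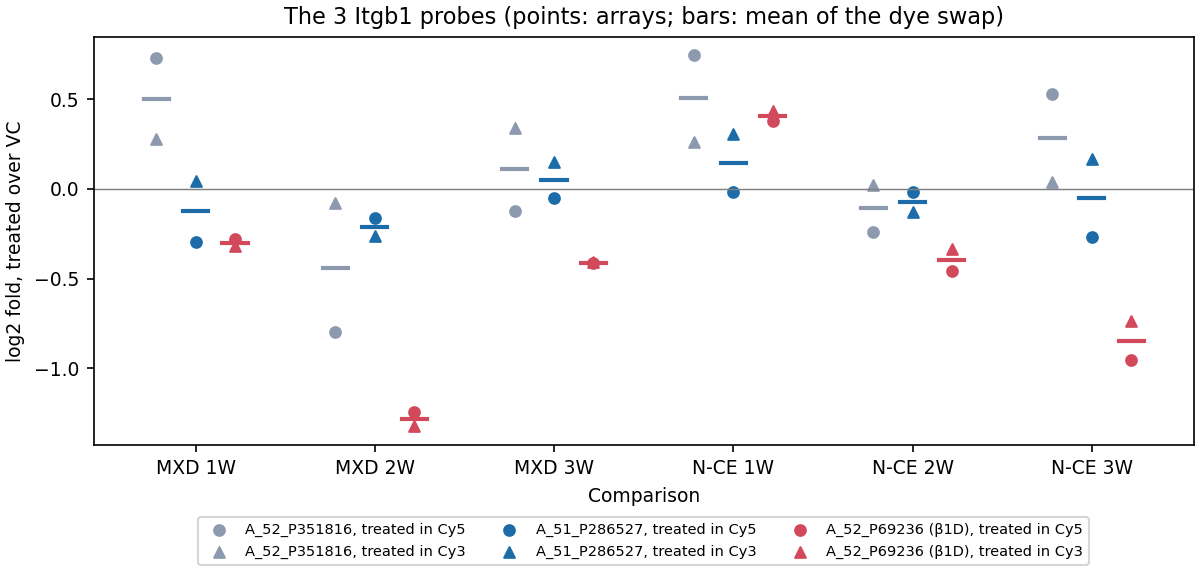
Log2 fold of the 3 Itgb1 probes in each comparison, with the 2 arrays as points (circle, treated in Cy5, and triangle, treated in Cy3) and their mean as a bar. The β1D probe is at -1.28 in MXD 2W and -0.85 in N-CE 3W, and the means of the other 2 probes lie between -0.44 and 0.50, with single arrays from -0.80 to 0.74.

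Other members known from striated muscle were low in the same comparison. Itgb1bp2, or melusin, a muscle protein that binds the β1 tail, was down-regulated in MXD at 2W at -1.15 and -1.47 (-1.30 ± 0.23) and was at -0.47 ± 0.03 in MXD at 1W. Itga7, the α chain that pairs with β1 as the laminin receptor of muscle fibres, was not called, at -0.57 ± 0.63 and -0.63 ± 0.35 in MXD at 2W and -0.49 ± 0.25 and -0.54 ± 0.14 in MXD at 1W. Beside them, all 7 skeletal muscle markers were down-regulated in MXD at 2W (median -1.46 ± 0.34, from -1.80 to -1.22), and 6 of 7 in MXD at 1W (median -0.73 ± 0.09), where Myh2 was up-regulated. In N-CE at 3W, 1 of 7 was down-regulated, with a median of -0.34 ± 0.03. In N-CE at 1W the muscle median was -0.08 ± 0.12. The part of muscle content in the pools in these values was not tested.

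**Figure D4:**
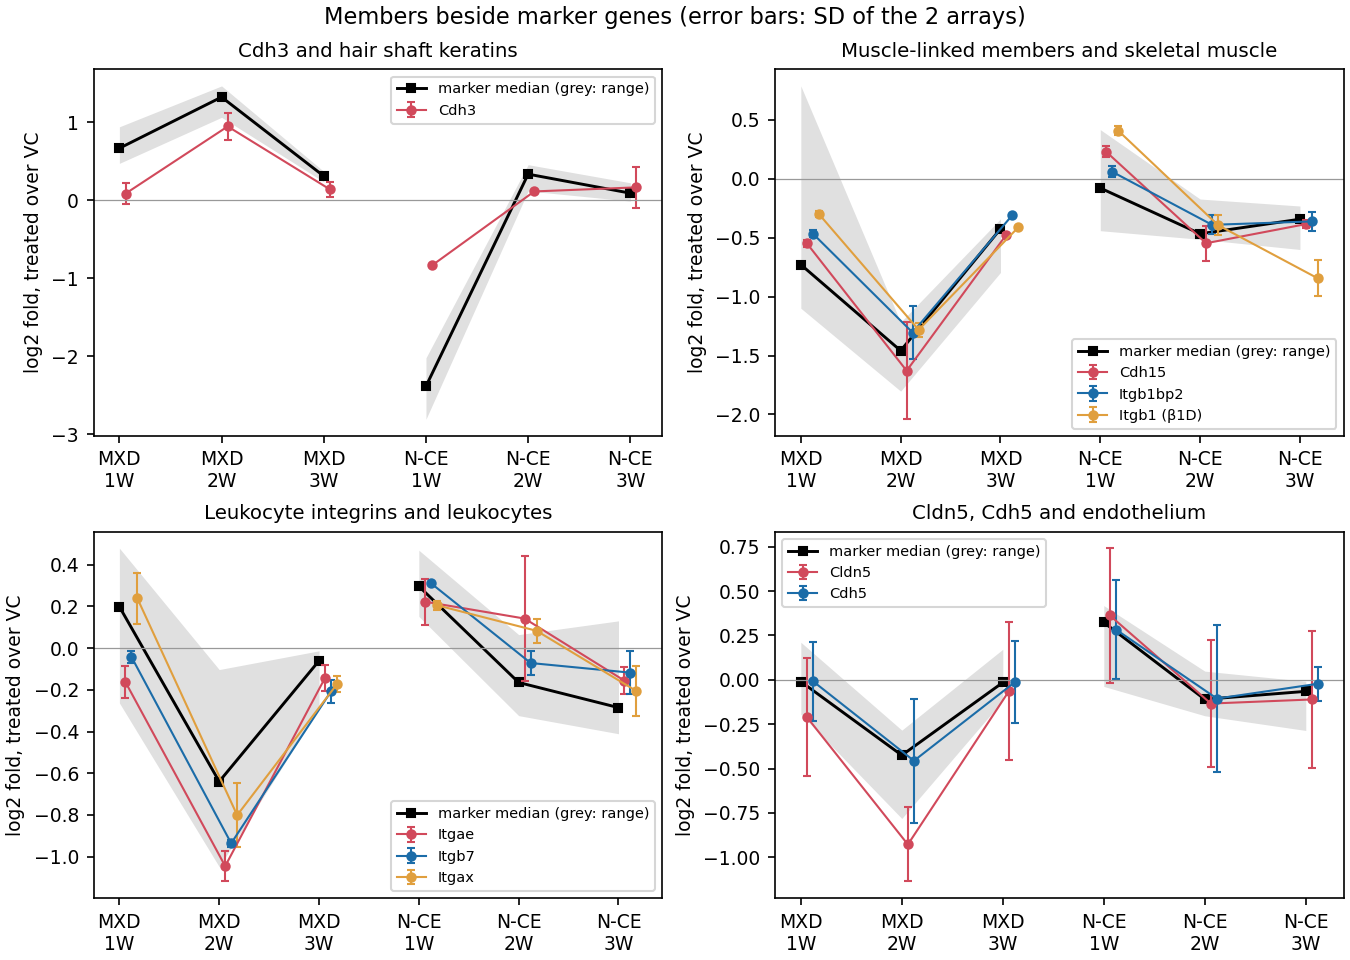
Log2 fold (treated over VC) of members in the 6 comparisons, with error bars for the SD of the 2 arrays, beside the median (black) and range (grey) of marker genes of a cell type. Cdh3 lies above 0 where the hair shaft median is 1.32 (MXD 2W) and below 0 where it is -2.38 (N-CE 1W), and Cdh15, Itgb1bp2 and the β1D probe are lowest in MXD 2W, as is the muscle median at -1.46.

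Of the remaining integrin-named genes, Itgb1bp1 (ICAP-1, which binds the β1 tail) was down-regulated in MXD at 2W at -0.66 and -0.71 (-0.68 ± 0.03), with -0.77 ± 0.35 at its other probe. Itgbl1 was down-regulated at -1.04 and -0.85 (-0.94 ± 0.14). Fibroblast markers were low there too, 0 of 5 above 0, with a median of -0.82 ± 0.15. In the same comparison the probes of Cdh11, the cadherin of dermal fibroblasts, lay between -0.02 and 0.09 and were not called. The part of fibroblast content in these values was not tested.

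The integrins of the epidermis were called in no comparison. The 9 probes of Itga3, Itga6 and Itgb4, the laminin receptor chains of basal keratinocytes, had a median of -0.32 ± 0.07 in MXD at 2W. Itgb4 gave -0.32 ± 0.08, -0.34 ± 0.16 and -0.10 ± 0.27, and Itga6 gave -0.76 ± 0.54, -0.52 ± 0.67 and -0.35 ± 0.22. On the first Itga6 probe the arrays read -1.14 and -0.38. The 3 Itga3 probes gave 0.04 ± 0.03, 0.35 ± 0.62 and 0.38 ± 0.56. In the other comparisons the median of these 9 probes lay between -0.15 and 0.10. Basal keratinocyte markers had a median of -0.05 ± 0.34 in MXD at 2W, with 2 of 5 above 0 and a range from -0.91 to 0.33. Col17a1, the hemidesmosome collagen, was the lowest of them and the only 1 down-regulated. The 14 probes of RGD-binding integrins had a median of -0.05 ± 0.08 in MXD at 2W and 0 calls in all 6 comparisons. Itgb6, the epithelial chain that activates TGF-β, gave 0.25 ± 0.39 and -0.12 ± 0.41 in MXD at 2W and -0.50 ± 0.51 and -0.55 ± 0.01 in N-CE at 1W. The 5 probes of collagen-binding Itga1 and Itga11 had a median of 0.13 ± 0.25 in MXD at 2W and 0 calls.

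Where a called gene had more than 1 detected probe, the others could be set beside it. This was so for 5 of the 22 genes called in MXD at 2W (Cdh4, Cdh13, Itgae, Itgb1 and Itgb1bp1), and their 6 other probes were on the same side of 0 without passing the call. The exchange of sign between MXD at 2W and N-CE at 1W, which share no VC pool, held for 6 of the 7 up-regulated members (all but Cdh6, at 0.05 ± 0.17) and for 15 of the 15 down-regulated members. Of all detected probes called in MXD at 2W, 92.2% of the up-regulated and 86.3% of the down-regulated ones had the opposite sign in N-CE at 1W, and the members' counts lie near those shares.

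Partners and ligands of these families were read with 1 probe per gene. Of 10 adherens junction genes (catenins, vinculin, afadin and nectins), 0 were called in any comparison. In MXD at 2W, 9 of 10 were above 0 with a median of 0.46 ± 0.11. Among 9 tight junction genes, 7 were above 0 in MXD at 2W, with a median of 0.23 ± 0.25. Tjp3 and Cgn, which encode scaffold proteins of the junction, were down-regulated there (-0.98 and -0.88), and none was down-regulated in the other comparisons. Of 13 integrin adaptors, Lims2 and Fermt2 were down-regulated (-0.78 and -0.70) in MXD at 2W, and none elsewhere. Among 11 integrin ligands, 2 were up-regulated in MXD at 1W, namely Spp1 (osteopontin, 2.15) and Tnc (tenascin C, 0.94). In MXD at 2W, 2 were up- and 4 down-regulated, the largest being Spp1 at -1.41 and Vtn (vitronectin) at -1.12. Thbs1 was down-regulated in MXD at 3W (-1.06), and Tnc in N-CE at 1W (-0.68).

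A change of like size in all 3 weeks was sought with limma on the weekly log2 folds against 0. With Benjamini-Hochberg adjustment over all detected probes, 0 members passed for MXD, for N-CE or for MXD minus N-CE, against 0% of all probes. Unadjusted, 17 of 85 members had p below 0.05 for MXD (10.3% of all probes), 1 for N-CE (1.81%) and 9 for the difference (7.15%). Leaving out 1 week moved these counts to between 8 (without 1W) and 20 (without 3W) for MXD, 0 (without 3W) and 15 (without 1W) for N-CE, and 3 (without 1W or 2W) and 29 (without 3W) for the difference. The shares of all probes with p below 0.05 were 6.41% (without 1W) and 11.7% (without 3W) for MXD. They were 0.842% (without 3W) and 14.8% (without 1W) for N-CE, and 2.43% (without 1W), 1.85% (without 2W) and 22.4% (without 3W) for the difference. The lowest adjusted p of a member in this limma fit was 0.465 for MXD, shared by Cdh6 (mean log2 fold 0.63 ± 0.13, SE), Cdh2 (-0.81 ± 0.20) and others, 1 for N-CE and 0.675 for the difference. Over the alternatives tried the lowest adjusted p of a member ran from 0.284 to 0.697 for MXD, 0.273 to 1 for N-CE and 0.0551 to 1 for the difference. In the difference, Cdh2 had the lowest unadjusted p, with MXD below N-CE by a mean log2 fold of -0.95 ± 0.17. Weeks are time points and not replicates, and a change in 1 week only is out of reach of this fit. A call in 1 week did not mean that the other weeks lay on the other side of 0. Of the 7 members up-regulated in MXD at 2W, 6 were above 0 in MXD at 1W and 5 in MXD at 3W. Of the 15 down-regulated, 12 were below 0 in MXD at 1W and 13 in MXD at 3W. The same counts over all probes were not made.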

How the data were processed

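Two-colour Agilent whole mouse genome arrays were scanned and processed by the authors with Agilent Feature Extraction (12.0.3.1 per the file headers), which subtracts background and normalizes dyes by LOWESS. The deposited log10 ratio per spot is Cy5 over Cy3, the deposited p-value is that of the software's error model, and the deposited signal intensity is given raw and processed per channel. The deposited matrix holds the log10 ratio of the processed intensities at all 43379 transcript spots (checked within 1e-05). Probe positions are on mm9.

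Ratios were turned to treated over VC, converted to log2, averaged over the spots of a probe without control and outlier spots, and averaged over the dye swap. Tools were Python 3.11.15, numpy 2.4.6, pandas 2.3.3, R 4.3.3 and limma 3.58.1 (lmFit, eBayes). Calls and the limma fit were run on simulated data with known answers, as a check of the code and not of error rates in these data. The members, gene lists and tests were chosen with earlier results of these data known. Named were every member called, a fixed set of skin, vessel, muscle and leukocyte members, and the 2 partners with the largest absolute fold in a list with calls. Partner and marker genes used the probe with the highest mean signal. Alternatives covered the P, the fold thresholds, detection, normexp (offset 50) with loess, outlier spots, the matrix, single arrays, 1 probe per gene, single weeks and the slide as a random block. Only 2 arrays per comparison, of 1 pool each, limit the precision. One partner gene is not reported here.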

Additional observations from a re-analysis of the deposited data

Results flagged for a closer look

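Some called members had the opposite sign on both arrays of another week of the same treatment or of the other treatment in the same week. The differences were not tested. In MXD, from 1W to 2W, Itgbl1 went from 0.16 to -0.94, Itgax from 0.24 to -0.80, Itga4 from 0.52 to -0.89 and Cldn3 from -0.31 to 0.87 on the log2 scale. Between 2W and 3W of MXD, Cldn3 was at 0.87 and -0.15, Cldn11 at -0.97 and 0.12 and Cldn14 at 0.86 and -0.23. In N-CE, from 1W to 2W, Cldn8 went from -0.65 to 0.70, Cdh3 from -0.83 to 0.11, Cldn14 from -0.64 to 0.16 and Cldn22 from 0.70 to -0.54. Cldn22 was at -0.32 in N-CE at 3W, and the β1D probe of Itgb1 was at 0.41 in N-CE at 1W and -0.85 at 3W. Between treatments in the same week, which share a VC pool, Itgax was at -0.80 in MXD and 0.08 in N-CE at 2W, Cldn11 at -0.97 and 0.23 at 2W, Cldn14 at 0.051 and -0.64 at 1W, and Cldn22 at -0.088 and 0.70 at 1W.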

How the results depend on the processing

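The counts of called members kept within 1.5 times under the matrix values, symmetric folds, the outlier spots kept, no filter on dim probes and the filter on all readings. The matrix holds the ratios of the same processed intensities, and no member below the filter passed the call. The matrix values and the lack of a filter could therefore hardly move these counts. Without the P threshold, the up- and down-regulated members were 3 and 8 in MXD at 1W (2.01% and 5.74% of all detected probes), 11 and 34 in MXD at 2W (10.5% and 19.9%), 2 and 2 in MXD at 3W (0.82% and 2.63%) and 2 and 9 in N-CE at 1W (1.36% and 7.34%), with 4 down in N-CE at 2W (1.97%) and 2 down in N-CE at 3W (3.66%). Under normexp and loess, 13 of the 15 down and 5 of the 7 up calls in MXD at 2W were kept, and N-CE at 1W had 0 up and 1 down. That setting called 8.6% of all detected probes down and 4.0% up in MXD at 2W. In N-CE at 1W it called 2.01% down and 0.18% up. On single arrays, up-regulated members numbered 2 to 3 (MXD 1W), 11 to 12 (MXD 2W), 0 to 1 (MXD 3W), 3 to 3 (N-CE 1W), 1 to 4 (N-CE 2W) and 1 to 2 (N-CE 3W), and down-regulated ones 0 to 3, 20 to 27, 0 to 0, 5 to 7, 0 to 5 and 1 to 1. Of all detected probes, the single arrays of MXD at 2W called 11.1% to 12.9% up and 14.4% to 15.1% down, and those of the other comparisons 0.474% to 2.51% up and 0.672% to 4.15% down. All 22 calls of MXD at 2W held on each array alone. A call already required the P and the sign on each array, so only the fold could have failed here.

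Family medians moved by more than the array spread in 30 values under an alternative and by less in 114. Under normexp and loess they were -0.043 (cadherin, MXD 1W), -0.18 (integrin, MXD 2W), -0.0040 (claudin, MXD 3W), 0.032 (integrin, N-CE 1W) and -0.018 (integrin, N-CE 3W). With all probes, they were 0 (cadherin, MXD 1W and 2W, and claudin, MXD 3W), -0.21 (integrin, MXD 2W), 0.058 (integrin, N-CE 1W) and 0.015 (integrin, N-CE 3W). With the filter on all readings, integrins were at 0.093 (N-CE 1W) and 0.032 (N-CE 3W). With 1 probe per gene, cadherins were at -0.045 (MXD 1W) and integrins at 0.14 (N-CE 1W) and 0.0071 (N-CE 3W). On single arrays the cadherin median ran from -0.057 to -0.028 (MXD 1W), -0.70 to -0.18 (MXD 2W), -0.21 to 0.0088 (MXD 3W), 0.0058 to 0.17 (N-CE 1W), -0.20 to 0.00090 (N-CE 2W) and -0.046 to 0.018 (N-CE 3W). On single arrays the claudin median ran from -0.14 to 0.048 (MXD 1W), 0.17 to 0.45 (MXD 2W), -0.032 to 0.023 (MXD 3W), -0.13 to -0.0045 (N-CE 1W), 0.034 to 0.13 (N-CE 2W) and -0.089 to 0.0032 (N-CE 3W). On single arrays the integrin median ran from -0.00060 to 0.091 (MXD 1W), -0.32 to -0.26 (MXD 2W), -0.065 to -0.0070 (MXD 3W), 0.099 to 0.10 (N-CE 1W), -0.087 to -0.042 (N-CE 2W) and -0.0087 to 0.018 (N-CE 3W).
After adjustment, the limma counts stayed at 0 in all 18 alternatives, while the unadjusted counts of members of 17 (MXD), 1 (N-CE) and 9 (difference) moved to 8 to 20, 0 to 15 and 3 to 29 without 1 week. The shares of all probes moved likewise, from 10.3%, 1.81% and 7.15% to 6.41% to 11.7%, 0.842% to 14.8% and 1.85% to 22.4%. The lowest adjusted p of a member was 0.0551, for the difference without 3W.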
